A study of Mus musculus with 9 samples.

Results

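The 37 genes described here encode the machinery of macroautophagy and its end point, the lysosome. The list was chosen with earlier results of these data known, so its shares of called genes are descriptions. Every one of the 37 symbols matched 1 Ensembl identifier among the 53679 in the count table. Total RNA had been sequenced from CD8+ T cells that were taken from C57BL/6 mice and kept under activation for 3 days. The 9 libraries fell into 3 groups of 3. Tc22 cells were labelled as untreated, a group of Tc0 cells had been given coenzyme A (CoA), and the other Tc0 cells were labelled as untreated. Each of 3 mice, numbered 715, 725 and 728, gave 1 library of every group. Tc0 usually denotes CD8+ T cells activated in the absence of polarising cytokines, and Tc22 denotes CD8+ T cells that make interleukin-22. What the Tc22 cultures received to become so is not given in the sources used here, and neither is the CoA dose. By its title the study concerns pantothenate, the vitamin from which CoA is made, and the antitumor activity of T cells.

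In macroautophagy a double membrane grows around a piece of cytoplasm, closes, and fuses with a lysosome, where acid hydrolases break the contents down. The ULK kinase complex starts the process, a class III phosphatidylinositol 3-kinase marks the membrane with the lipid PI3P, and a pair of ubiquitin-like conjugation systems attaches ATG8 proteins to the lipid phosphatidylethanolamine. Cargo receptors then tie selected material to the ATG8 proteins. The kinase complex mTORC1 restrains the ULK kinases and keeps transcription factors of the MiT/TFE family out of the nucleus, where they would otherwise switch on genes of lysosomes and autophagy. In CD8+ T cells autophagy is known to be needed for the survival of cells that go on to form memory. Transcript levels do not measure the rate of autophagy.

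Gene counts summed to between 21841034 and 36254631 per library. All 10 markers fixed for CD8 T cells passed the filter on low counts, and their summed level ran over 2667 to 3386 CPM, read counts scaled to the size of the library, in Tc22, 2338 to 2923 CPM in Tc0 with CoA and 2554 to 3530 CPM in Tc0 libraries. The Tc0 library of mouse 728 stood apart from its group. Set against the other Tc0 libraries, the chi-square statistic of its counts came to 127 and 216 per degree of freedom, while the remaining pairs within a group gave 22.3 to 69.8. In 22 of the 37 genes (59.5%) it was the highest of the Tc0 group, against 39.0% of all 15348 genes tested. Within a group the genes varied by a median coefficient of variation of 9.46% in Tc22, 10.9% in Tc0 with CoA and 19.4% in Tc0 libraries, against 13.6%, 16.4% and 23.8% over all genes tested.

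All 37 genes passed the filter on low counts. Levels can be set against each other only per length of transcript. On the scale of mean CPM over the 9 libraries per kilobase of the principal transcript, Ctsd (76.9), Gabarap (66.3) and Lamp1 (58.1) stood highest and Mitf (0.203), Map1lc3a (1.08) and Tfeb (1.48) lowest. Below, values in CPM are levels of 1 gene across libraries, listed by mouse in the order 715, 725 and 728. Fold changes come from edgeR's quasi-likelihood test with mouse as a block, with p-values adjusted by the Benjamini-Hochberg method over all 15348 genes. A gene is called where its adjusted p is under 0.05. Single libraries are named by group and mouse, as in Tc22 715, Tc0+CoA 725 and Tc0 728. Where a call or count is given without several of them, they were left out 1 at a time.

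In Tc0 cells given CoA, transcripts for several steps of autophagosome formation were lower than in untreated Tc0 cells. They included Atg12, Wipi1, Atg14, Ulk2, Rb1cc1 and Atg9a, along with the cargo receptors Sqstm1, Nbr1 and Calcoco1 and the ATG8 genes Gabarap and Map1lc3b. Of the 37 genes, 11 were called lower (29.7%, against a background of 12% of all genes tested) and 1, Ctsl, was called higher (2.7%, against 12.5%). Their median log2 fold change was -0.14, against -0.01 over all genes tested, and within mice 715, 725 and 728 the median log2 ratio was -0.0080, -0.17 and -0.34. Without Tc0 715 the median log2 fold change was -0.27, and without Tc0+CoA 725 it was -0.094. In bulk RNA, a lower share of cells that express a gene and less of its RNA per cell cannot be told apart. The markers fixed for dendritic cells (4 of 6 tested, Siglech at 0) summed to 4.36 to 5.85 CPM in Tc22, 5.46 to 9.40 CPM in Tc0 with CoA and 3.73 to 5.004 CPM in Tc0 libraries, so that those with CoA lay wholly above Tc0. Those for granulocytes and mast cells (1 of 6 tested, with S100a9, Elane and Mcpt4 at 0) summed to 0.0340 to 0.593 CPM in Tc22, 0.987 to 1.56 CPM in Tc0 with CoA and 0.220 to 0.979 CPM in Tc0 libraries, again highest with CoA. Those for natural killer cells (1 of 4 tested, 0 at 0) summed to 1.02 to 1.39 CPM in Tc22, 0.133 to 0.607 CPM in Tc0 with CoA and 0.496 to 0.913 CPM in Tc0 libraries, highest in Tc22. The part of these cell types in the results with CoA was not tested. Libraries with CoA did not overlap those of Tc0 in 11 genes where they lay below (13.6% of all genes tested) and in 4 where they lay above (14.2%). The 3 Tc0 libraries with CoA lay below all 6 other libraries in 9 of the 37 genes (background 9.28%) and above all 6 in 3 (10.8%). The 9 were Nbr1, Calcoco1, Gabarap, Ulk2, Rb1cc1, Pik3c3, Atg14, Wipi1 and Atg12, and the 3 were Becn1, Atg16l1 and Ctsl. The count of 11 was 3 without Tc0+CoA 728, where 4.22% of all genes were called lower, and 4 without Tc0+CoA 725 (3.59%). It was 5 without Tc0 725 (3.17%) and 4 without the mouse block (4.31%). Without each of those 3 libraries the count of genes called higher was 0 (4.13% to 5.13% of all genes).

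Few of these genes were called between Tc22 cells and untreated Tc0 cells. The count was 2 called higher, Optn and Tfe3 (5.41%, against a background of 2.48%), and 0 called lower (background 1.21%). DESeq2 and limma-voom also called 2 higher and 0 lower. Of all genes, DESeq2 called 4.13% higher and 2.21% lower, and limma-voom 2.42% and 1.19%. By edgeR, 7 of the 37 genes had an unadjusted p under 0.05 (21.2% of all genes tested). All Tc22 libraries lay above all Tc0 libraries in 4 genes (background 6.55%) and below them in 2 (5.98%). The median log2 fold change was 0.11, against -0.01 over all genes tested, and it was 0.047 without Tc0 715 and 0.17 without Tc0 728. Leaving out single libraries moved the count. Without Tc0 728 it was 5 higher and 3 lower, where 9.91% and 7.1% of all genes were called. Without Tc0 725 or Tc22 725 it was 0 higher (0.932% and 0.944% of all genes). It was 1 higher without Tc22 715, Tc0 715, Tc0+CoA 728 or the mouse block, and in a fit of only the groups compared (0.567% to 2.62% of all genes).

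Set directly against Tc0 cells with CoA, Tc22 cells had 15 of the 37 genes called higher (40.5%, against a background of 16%) and 2, Atg3 and Ctsl, called lower (5.41%, against 16%). The median log2 fold change was 0.37, against 0.01 over all genes tested, and the median log2 ratio was 0.30, 0.40 and 0.30 within mice 715, 725 and 728. All Tc22 libraries lay above all libraries with CoA in 17 genes (background 20.2%) and below them in 5 (21.7%). This comparison uses the same Tc0 libraries with CoA as the one against untreated Tc0 cells, so the lists of called genes are not independent and their values are given side by side. The count of genes called higher was 8 without Tc22 725 or Tc0+CoA 728 (7.32% and 8.03% of all genes), and 9 without Tc22 715 (10.5%). It was 10 without Tc0+CoA 725 (7.85%) and 7 without the mouse block (6.63%). Without the first 3 of those libraries the count called lower was 0 (6.61% to 10% of all genes), and without Tc0+CoA 725 it was 1 (7.51%). Of the 37 genes, 19 were called in at least 1 of the 3 comparisons and 18 in none. The matching share of all genes tested was not computed, so this count describes only the list.

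**Figure D1:**
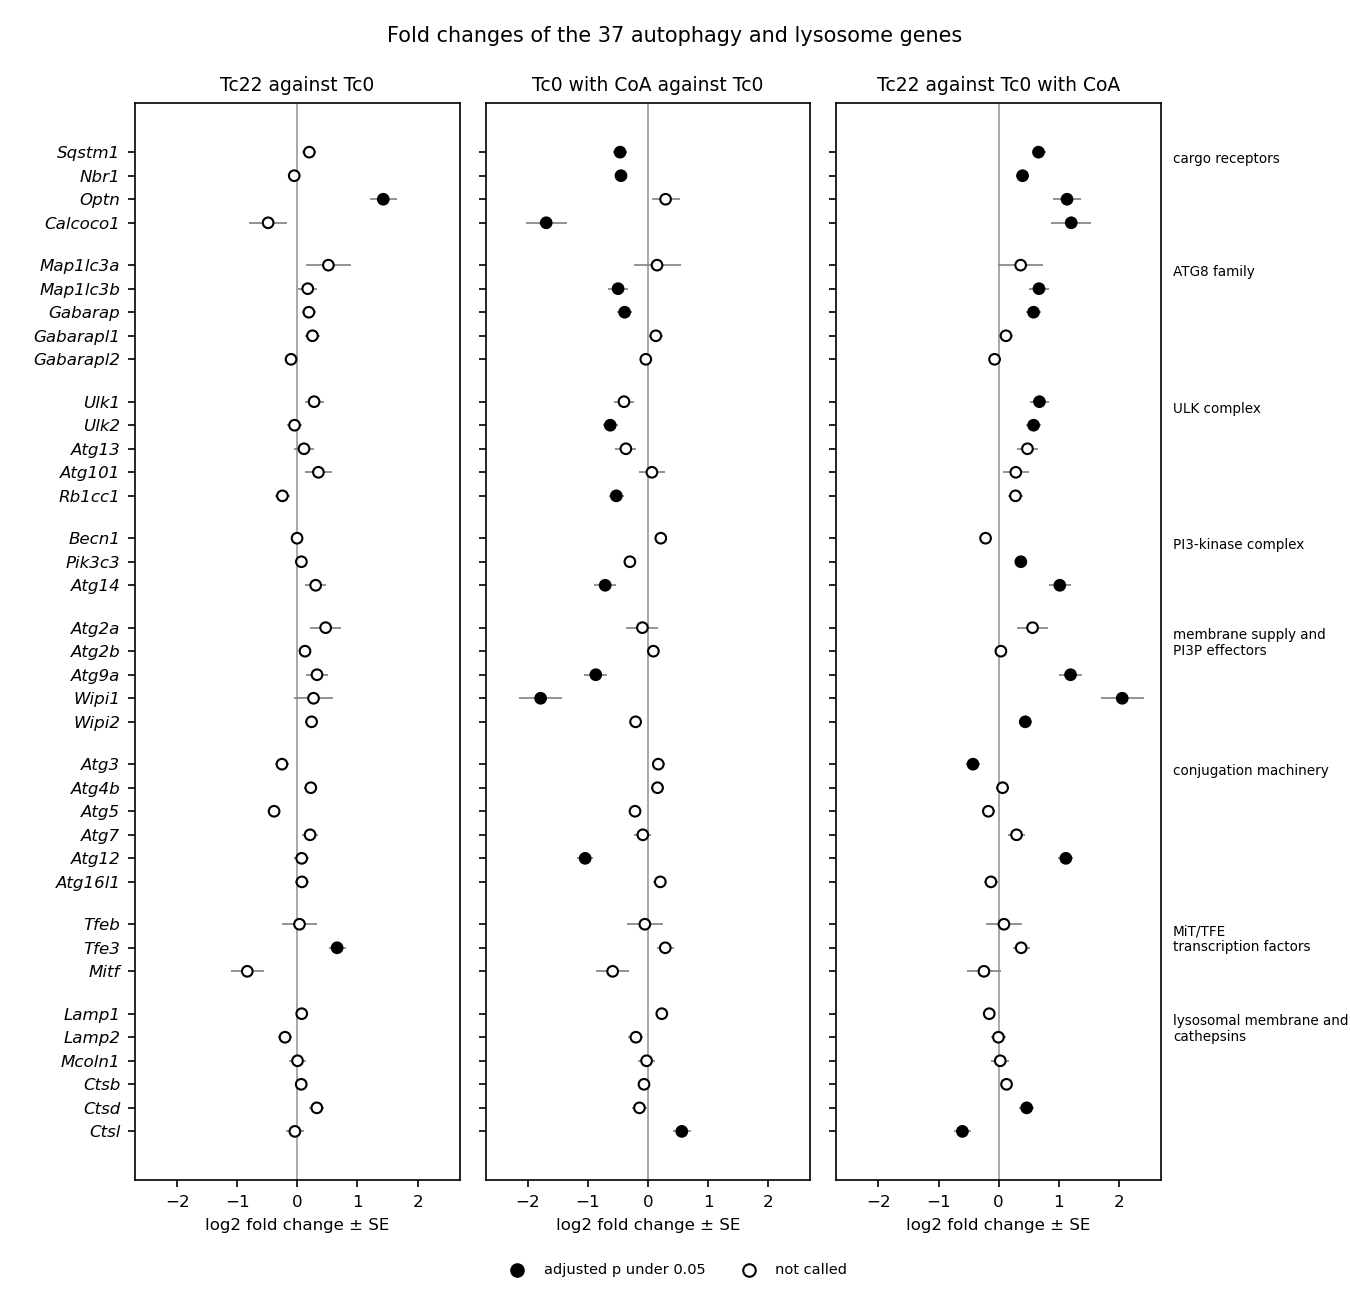
Each point is the log2 fold change of 1 of the 37 genes with its standard error, grouped by role, in Tc22 against Tc0, Tc0 with CoA against Tc0, and Tc22 against Tc0 with CoA. Filled points are called (2, 12 and 17 of 37 in the panels from left to right), and most filled points of the middle panel lie left of 0 while most of the right panel lie right of it.

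Among the 4 cargo receptors, 3 were called lower in Tc0 cells with CoA than in Tc0 cells (12% of all genes tested were). Called higher in Tc22 cells were 4 against Tc0 cells with CoA (16% of all genes) and 1 against Tc0 cells (2.48%). Sqstm1 (ENSMUSG00000015837, chromosome 11, 50199366 to 50210827, minus strand, GRCm38) encodes p62, which binds ubiquitin-tagged cargo. It had 72.6, 101 and 109 CPM in the Tc22 libraries of mice 715, 725 and 728, 51.2, 54.97 and 71.3 CPM in the Tc0 libraries with CoA, and 58.5, 82.4 and 109 CPM in the Tc0 libraries. The Tc22 libraries lay above all those with CoA, while the ranges of Tc0 with and without CoA overlapped, mouse 728 being the highest in every group. Sqstm1 was lower with CoA in each of 3 mice (log2 fold change -0.46, SE 0.12, adjusted p = 0.0188) and higher in Tc22 than in Tc0 with CoA (log2 fold change 0.66, SE 0.12, adjusted p = 0.0032). Its first call was lost without Tc0+CoA 725 or 728 or Tc0 725 (adjusted p between 0.0803 and 0.114), and without the mouse block (0.217), and its second without the mouse block (0.0893). Nbr1, a receptor of related build, had 91.4, 96.1 and 95.6 CPM in the Tc22 libraries, 76.2, 69.4 and 69.2 CPM in the Tc0 libraries with CoA, and 90.3, 107 and 96.6 CPM in the Tc0 libraries. The libraries with CoA were the 3 lowest of the 9. Nbr1 was lower with CoA than without (log2 fold change -0.45, SE 0.10, adjusted p = 0.0131) and higher in Tc22 than in Tc0 with CoA (log2 fold change 0.40, SE 0.10, adjusted p = 0.0157). Nbr1 missed the threshold in the comparison with Tc0 without Tc0+CoA 725 or 728 or Tc0 725 (adjusted p between 0.0825 and 0.0879). Its call in Tc22 against Tc0 with CoA was lost without any 1 of the Tc22 libraries or Tc0+CoA 725 or 728 (adjusted p between 0.0555 and 0.0986).

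Optn (ENSMUSG00000026672, chromosome 2, 5020642 to 5064051, minus strand) encodes optineurin, a receptor for damaged mitochondria and intracellular bacteria. Its levels were 6.73, 10.8 and 10.2 CPM in the Tc22 libraries, 4.55, 4.19 and 3.77 CPM in the Tc0 libraries with CoA, and 3.81, 2.798 and 3.58 CPM in the Tc0 libraries. All Tc22 libraries lay above all others, and the ranges of Tc0 with and without CoA overlapped. Optn was 2.69-fold higher in Tc22 than in Tc0 cells (log2 fold change 1.43, SE 0.23, adjusted p = 0.00906) and 2.199-fold higher than in Tc0 with CoA (log2 fold change 1.14, SE 0.23, adjusted p = 0.00537). With CoA against Tc0 it was not called (log2 fold change 0.29, SE 0.23, adjusted p = 0.39). The call in Tc22 against Tc0 was lost without Tc22 725 or Tc0 725 (adjusted p between 0.0563 and 0.0611). Calcoco1, described in human cells as a receptor for endoplasmic reticulum, had 4.89, 6.87 and 9.91 CPM in the Tc22 libraries, 3.15, 1.88 and 4.13 CPM in the Tc0 libraries with CoA, and 4.15, 9.84 and 19.4 CPM in the Tc0 libraries. Its spread was widest in the Tc0 group, where mouse 728 stood far above mouse 715, and the 3 libraries with CoA were the lowest of the 9, the highest of them by a narrow margin. Calcoco1 was lower with CoA (log2 fold change -1.69, SE 0.34, adjusted p = 0.00879), a call lost without Tc0+CoA 728 (adjusted p = 0.0548), and without the mouse block (0.053). It was higher in Tc22 than in Tc0 with CoA (log2 fold change 1.21, SE 0.34, adjusted p = 0.0226), and this call was lost without Tc22 715 or 725 or Tc0+CoA 725 or 728 (adjusted p between 0.0666 and 0.113), and without the mouse block (0.136).

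Members of the ATG8 family are the ubiquitin-like proteins that coat the growing membrane. Map1lc3b, the gene of LC3B, had 45.7, 63.4 and 74.8 CPM in the Tc22 libraries of mice 715, 725 and 728, 34.7, 34.5 and 43.7 CPM in the Tc0 libraries with CoA, and 33.3, 58.7 and 75.1 CPM in the Tc0 libraries. Levels followed the mouse within every group, with mouse 715 at or near the low end and mouse 728 at the top. Map1lc3b was lower with CoA in 2 of 3 mice (log2 fold change -0.50, SE 0.16, adjusted p = 0.0465), close to the threshold. This call was lost without any 1 of the Tc22 libraries, Tc0+CoA 725 or 728 or Tc0 725 or 728 (adjusted p between 0.0575 and 0.223), without the mouse block (0.23), with DESeq2 size factors (0.0509), with library size alone (0.0607), and in a fit of only the groups compared (0.073). For Tc22 against Tc0 with CoA it was higher in 3 of 3 mice without overlap (log2 fold change 0.67, SE 0.16, adjusted p = 0.0113), a call lost without Tc22 725 or Tc0+CoA 725 or 728 (adjusted p between 0.0593 and 0.0734), and without the mouse block (0.123). Gabarap (ENSMUSG00000018567, chromosome 11, 69991143 to 69994951, plus strand), the founding gene of the other branch of the family, had 98.1, 99.5 and 119.9 CPM in the Tc22 libraries, 78.99, 61.01 and 72.1 CPM in the Tc0 libraries with CoA, and 86.2, 96.01 and 94.8 CPM in the Tc0 libraries. All libraries with CoA lay below all others, and all Tc22 libraries lay above all Tc0 libraries. Gabarap was 1.495-fold higher in Tc22 than in Tc0 with CoA (log2 fold change 0.58, SE 0.12, adjusted p = 0.00626), a call that held under each of the 16 alternatives run. It was lower with CoA than in Tc0 (log2 fold change -0.39, SE 0.12, adjusted p = 0.0407), a call lost without Tc22 715 or 725, Tc0+CoA 725 or 728 or Tc0 725 or 728 (adjusted p between 0.0509 and 0.227), without the mouse block (0.0975), and in a fit of only the groups compared (0.0769). Between Tc22 and Tc0 Gabarap was not called (log2 fold change 0.19, SE 0.12, adjusted p = 0.373).

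The other 3 genes of the family were not called in any comparison. Gabarapl1 averaged 49.4 ± 3.35 CPM in Tc22, 45.2 ± 2.42 CPM in Tc0 with CoA and 41.6 ± 5.92 CPM in Tc0 libraries (each a mean ± SD of 3 libraries), and its smallest adjusted p was 0.251, in Tc22 against Tc0. Gabarapl2 averaged 57.2 ± 4.06, 59.9 ± 4.07 and 61.5 ± 5.97 CPM in the same groups. Map1lc3a lay lowest in the family, at 1.19, 1.16 and 1.85 CPM in the Tc22 libraries, 0.797, 1.08 and 1.38 CPM in the Tc0 libraries with CoA, and 0.315, 0.839 and 2.15 CPM in the Tc0 libraries, and its Tc0 range spanned both other groups. Per kilobase of transcript, over all libraries, Gabarap (66.3 CPM) was the most abundant of the 5, followed by Gabarapl2 (35.5), Gabarapl1 (24.9), Map1lc3b (20.4) and Map1lc3a (1.08).

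**Figure D2:**
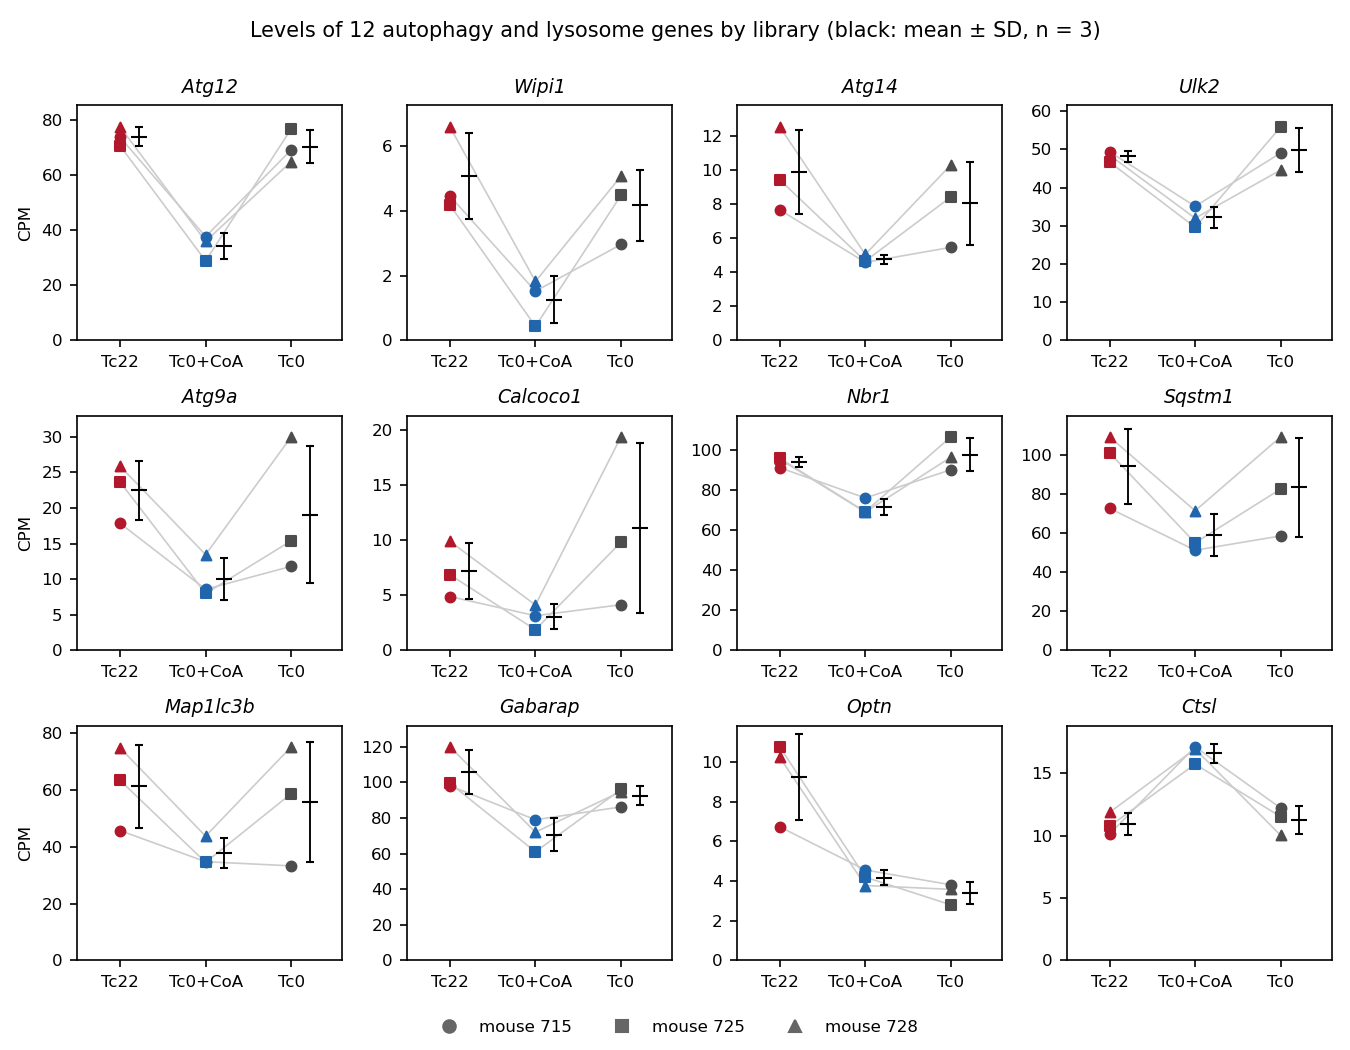
Levels in CPM of 12 of the called genes, in each library of the Tc22, Tc0 with CoA and Tc0 groups, with grey lines joining the libraries of 1 mouse and black marks for mean ± SD (n = 3). Atg12, Wipi1, Atg14 and Ulk2 dip in all 3 libraries with CoA, Optn is highest in all 3 Tc22 libraries, and Ctsl is highest in all 3 libraries with CoA.

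The ULK complex holds a kinase, ULK1 or ULK2, with the scaffolds ATG13, ATG101 and FIP200. Ulk2 (ENSMUSG00000004798, chromosome 11, 61775649 to 61855073, minus strand) had 49.4, 46.7 and 48.5 CPM in the Tc22 libraries of mice 715, 725 and 728, 35.1, 29.6 and 32.002 CPM in the Tc0 libraries with CoA, and 49.1, 55.9 and 44.6 CPM in the Tc0 libraries. The 3 libraries with CoA were the lowest of the 9, and Tc22 and Tc0 libraries overlapped. Ulk2 was lower with CoA than in Tc0 (log2 fold change -0.63, SE 0.12, adjusted p = 0.00759) and higher in Tc22 than in Tc0 with CoA (log2 fold change 0.58, SE 0.12, adjusted p = 0.00642). Both calls held under each of the 16 alternatives run. Rb1cc1, the gene of FIP200, had 87.02, 95.4 and 91.96 CPM in the Tc22 libraries, 82.6, 76.5 and 67.6 CPM in the Tc0 libraries with CoA, and 106, 134 and 90.1 CPM in the Tc0 libraries. Libraries with CoA were again the 3 lowest, while Tc22 and Tc0 libraries overlapped. It was lower with CoA (log2 fold change -0.53, SE 0.12, adjusted p = 0.0146), a call lost without Tc0+CoA 725 or 728 or Tc0 725 (adjusted p between 0.0759 and 0.0914), and without the mouse block (0.0534). With Tc22 set against Tc0 with CoA Rb1cc1 was not called (log2 fold change 0.28, SE 0.12, adjusted p = 0.111). The count of this gene may include reads of the antisense gene 4732440D04Rik, which overlaps it and had 1173 counts over the 9 libraries, against 23971 for Rb1cc1.

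Ulk1 had 15.2, 13.6 and 16.9 CPM in the Tc22 libraries, 8.39, 8.896 and 11.5 CPM in the Tc0 libraries with CoA, and 10.5, 10.2 and 18.03 CPM in the Tc0 libraries. The Tc22 libraries lay above all those with CoA, and the Tc0 range overlapped both, with mouse 728 highest. Ulk1 was called higher in Tc22 than in Tc0 with CoA (log2 fold change 0.68, SE 0.16, adjusted p = 0.0109), a call lost without Tc22 715 or 725 or Tc0+CoA 728 (adjusted p between 0.0605 and 0.0696), and without the mouse block (0.0998). It was not called with CoA against Tc0 (log2 fold change -0.40, SE 0.16, adjusted p = 0.0968), although it was lower in each of 3 mice. Atg13 was not called, at 14.3 ± 0.966 CPM in Tc22, 10.2 ± 0.353 CPM in Tc0 with CoA and 13.5 ± 4.19 CPM in Tc0 libraries. In Tc22 against Tc0 with CoA its adjusted p was 0.0603, and it passed the threshold without Tc0 715 or 728 (adjusted p between 0.0203 and 0.0453), and in a fit of only the groups compared (0.0247). Atg101 averaged 10.6 ± 1.79, 8.92 ± 2.35 and 8.98 ± 5.14 CPM in those groups. It was not called, except in Tc22 against Tc0 without Tc0 728 (adjusted p = 0.0298).

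The class III PI3-kinase complex that acts in autophagy joins the lipid kinase VPS34, from Pik3c3, to Beclin 1 and to ATG14, which brings the complex to the site of membrane growth. Of their genes, Atg14 and Pik3c3 were called in at least 1 comparison and Becn1 in none. Atg14 (ENSMUSG00000037526, chromosome 14, 47540893 to 47570649, minus strand) had 7.68, 9.45 and 12.6 CPM in the Tc22 libraries of mice 715, 725 and 728, 4.59, 4.67 and 5.06 CPM in the Tc0 libraries with CoA, and 5.48, 8.44 and 10.3 CPM in the Tc0 libraries. The libraries with CoA lay within a narrow range below all others, and Tc22 and Tc0 libraries overlapped. Atg14 was 2.02-fold higher in Tc22 than in Tc0 with CoA (log2 fold change 1.02, SE 0.18, adjusted p = 0.00359), a call that held under each of the 16 alternatives run. It was lower with CoA than in Tc0 (log2 fold change -0.71, SE 0.18, adjusted p = 0.0214), a call lost without Tc0+CoA 725 or 728 or Tc0 725 or 728 (adjusted p between 0.0568 and 0.133), and without the mouse block (0.103). Pik3c3 had 49.6, 55.97 and 56.3 CPM in the Tc22 libraries, 41.5, 40.5 and 43.1 CPM in the Tc0 libraries with CoA, and 48.1, 53.9 and 52.5 CPM in the Tc0 libraries. Its 3 libraries with CoA were the lowest of the 9, by a small margin. Pik3c3 was higher in Tc22 than in Tc0 with CoA (log2 fold change 0.37, SE 0.10, adjusted p = 0.0204), a call lost without any 1 of the Tc22 libraries or Tc0+CoA 725 or 728 (adjusted p between 0.061 and 0.122), and without the mouse block (0.0572). With CoA against Tc0 it missed the threshold (log2 fold change -0.30, SE 0.10, adjusted p = 0.0541) but passed it without Tc0 728 (adjusted p = 0.049).

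Becn1, the gene of Beclin 1, had 107, 107 and 101 CPM in the Tc22 libraries, 121, 122 and 122 CPM in the Tc0 libraries with CoA, and 109, 108 and 97.8 CPM in the Tc0 libraries. The 3 libraries with CoA were the highest of the 9 and lay close to each other. Becn1 was not called, either with CoA against Tc0 (log2 fold change 0.21, SE 0.09, adjusted p = 0.111) or in Tc22 against Tc0 with CoA (log2 fold change -0.22, SE 0.09, adjusted p = 0.0904). In the second of these it passed the threshold without Tc0 728 (adjusted p = 0.0393).

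Membrane for the autophagosome comes from vesicles with the lipid scramblase ATG9A and through the lipid transfer proteins ATG2A and ATG2B, and WIPI proteins read the PI3P mark. Wipi1 (ENSMUSG00000041895, chromosome 11, 109573331 to 109611967, minus strand) had 4.45, 4.18 and 6.59 CPM in the Tc22 libraries of mice 715, 725 and 728, 1.52, 0.434 and 1.82 CPM in the Tc0 libraries with CoA, and 2.96, 4.48 and 5.07 CPM in the Tc0 libraries. The 3 libraries with CoA were the lowest, and mouse 725 with CoA was the lowest of all. Wipi1 had the largest fold changes of the 37 genes in both comparisons that involve CoA. Its mean with CoA, 1.26 CPM, rests on few reads, with a coefficient of variation of 58.0%. Wipi1 was 4.15-fold higher in Tc22 than in Tc0 with CoA (log2 fold change 2.05, SE 0.36, adjusted p = 0.00302) and lower with CoA than in Tc0 (log2 fold change -1.79, SE 0.36, adjusted p = 0.00881). Both calls held under each of the 16 alternatives run. Wipi2, its paralog, had 56.2, 61.6 and 67.8 CPM in the Tc22 libraries, 39.8, 47.2 and 49.8 CPM in the Tc0 libraries with CoA, and 42.6, 53.1 and 63.2 CPM in the Tc0 libraries. Tc22 libraries lay above all those with CoA, and the Tc0 range overlapped both. Wipi2 was higher in Tc22 than in Tc0 with CoA (log2 fold change 0.44, SE 0.10, adjusted p = 0.0107), a call lost without Tc22 715 or 725 or Tc0+CoA 728 (adjusted p between 0.0521 and 0.0773), and without the mouse block (0.102). It was not called with CoA against Tc0 (log2 fold change -0.21, SE 0.10, adjusted p = 0.175).

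Atg9a had 17.8, 23.6 and 25.9 CPM in the Tc22 libraries, 8.58, 7.99 and 13.4 CPM in the Tc0 libraries with CoA, and 11.8, 15.4 and 29.98 CPM in the Tc0 libraries. Every Tc22 library lay above every library with CoA, and mouse 728 stood well above the other mice in the Tc0 group. Atg9a was 2.29-fold higher in Tc22 than in Tc0 with CoA (log2 fold change 1.20, SE 0.19, adjusted p = 0.00224), a call lost without the mouse block (0.0523). It was lower with CoA than in Tc0 in each of 3 mice (log2 fold change -0.87, SE 0.19, adjusted p = 0.012), a call lost without Tc0+CoA 725 or 728 (adjusted p between 0.0599 and 0.0637), and without the mouse block (0.118). Atg9a overlaps the more abundant gene Ankzf1 on the opposite strand (7240 counts over the 9 libraries, against 4676 for Atg9a). Whether reads were counted by strand is not given in the sources used here, so the pair may share reads. Atg2a was not called, at 15.5 ± 3.73 CPM in Tc22, 10.7 ± 3.13 CPM in Tc0 with CoA and 12.9 ± 10.2 CPM in Tc0 libraries. For Tc22 against Tc0 with CoA its adjusted p was 0.127, and it passed the threshold without Tc22 728 or Tc0 728 (adjusted p between 0.0141 and 0.0486), with no low-count filter (0.0471), and in a fit of only the groups compared (0.0199). Atg2b stayed within 122 to 146 CPM over the 9 libraries and was not called.

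Of the 6 genes of the conjugation machinery, Atg12 carried the smallest adjusted p of all 37 genes. ATG12 is the ubiquitin-like protein that is joined to ATG5 and, with ATG16L1, directs ATG8 proteins onto the membrane. Atg12 had 73.6, 70.5 and 77.4 CPM in the Tc22 libraries of mice 715, 725 and 728, 37.6, 28.8 and 35.9 CPM in the Tc0 libraries with CoA, and 69.03, 76.6 and 64.8 CPM in the Tc0 libraries. The libraries with CoA lay far below all others, and Tc22 and Tc0 libraries overlapped. Atg12 with CoA was at 0.485 times its Tc0 level (log2 fold change -1.05, SE 0.13, adjusted p = 0.00181), and in Tc22 it was 2.17-fold higher than in Tc0 with CoA (log2 fold change 1.12, SE 0.13, adjusted p = 0.00057). Both calls held under each of the 16 alternatives run. Between Tc22 and Tc0 Atg12 was not called (log2 fold change 0.072, SE 0.12, adjusted p = 0.767). The genes of its partners are given next. Atg5 had 38.1, 41.8 and 39.4 CPM in the Tc22 libraries, 42.3, 46.4 and 45.6 CPM in the Tc0 libraries with CoA, and 51.4, 57.4 and 47.4 CPM in the Tc0 libraries, with the Tc0 libraries highest and the Tc22 libraries lowest. It was not called in Tc22 against Tc0 (log2 fold change -0.39, SE 0.10, adjusted p = 0.0783) but passed the threshold there without Tc0 728 (adjusted p = 0.0209). Atg16l1 averaged 33.4 ± 1.01 CPM in Tc22, 36.5 ± 0.872 CPM in Tc0 with CoA and 31.8 ± 3.596 CPM in Tc0 libraries, and was not called.

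Atg3, the E2-like enzyme that hands ATG8 proteins to the lipid, had 47.7, 46.3 and 40.6 CPM in the Tc22 libraries, 61.9, 67.5 and 52.2 CPM in the Tc0 libraries with CoA, and 61.2, 59.97 and 41.5 CPM in the Tc0 libraries. Tc22 libraries lay below all those with CoA, and the Tc0 range overlapped both, with mouse 728 lowest. Atg3 was lower in Tc22 than in Tc0 with CoA (log2 fold change -0.43, SE 0.11, adjusted p = 0.0162), a call lost without Tc22 715 or 725 or Tc0+CoA 725 or 728 (adjusted p between 0.0799 and 0.112), and without the mouse block (0.12). With Tc22 set against Tc0 it was not called (log2 fold change -0.26, SE 0.11, adjusted p = 0.222), except without Tc0 728 (adjusted p = 0.0425). Atg7, the E1-like enzyme of both systems, averaged 29.2 ± 6.04 CPM in Tc22, 23.7 ± 4.93 CPM in Tc0 with CoA and 25.6 ± 8.12 CPM in Tc0 libraries. Atg4b, the main protease that trims ATG8 proteins, averaged 46.3 ± 2.32, 44.5 ± 4.86 and 40.02 ± 7.04 CPM in those groups. Neither was called, and for both the ranges of the 3 groups overlapped.

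MiT/TFE factors bind E-boxes in the promoters of lysosomal and autophagy genes, and their activity is set mainly by phosphorylation and location rather than by transcript level. Tfe3 (ENSMUSG00000000134, chromosome X, 7762560 to 7775202, plus strand) had 16.1, 18.3 and 19.5 CPM in the Tc22 libraries of mice 715, 725 and 728, 11.7, 13.7 and 16.5 CPM in the Tc0 libraries with CoA, and 10.7, 9.65 and 13.9 CPM in the Tc0 libraries. All Tc22 libraries lay above all Tc0 libraries, and those with CoA overlapped both. Tfe3 was 1.58-fold higher in Tc22 than in Tc0 cells (log2 fold change 0.66, SE 0.14, adjusted p = 0.0333), a call lost without Tc22 715 or 725, Tc0+CoA 728 or Tc0 715 or 725 (adjusted p between 0.0746 and 0.204), without the mouse block (0.255), and in a fit of only the groups compared (0.0573). Against Tc0 with CoA it was not called (log2 fold change 0.37, SE 0.14, adjusted p = 0.0673), but passed the threshold without Tc0 728 (adjusted p = 0.0487), and in a fit of only the groups compared (0.0443). Mitf had the lowest levels of the 37 genes per length, with 0.646, 0.563 and 1.06 CPM in the Tc22 libraries, 0.987, 0.723 and 0.932 CPM in the Tc0 libraries with CoA, and 1.32, 1.21 and 1.46 CPM in the Tc0 libraries. The Tc0 libraries were the 3 highest, and Mitf was not called in Tc22 against Tc0 (log2 fold change -0.83, SE 0.27, adjusted p = 0.133) or with CoA against Tc0 (log2 fold change -0.59, SE 0.27, adjusted p = 0.142). Tfeb had 2.11, 3.73 and 4.06 CPM in the Tc22 libraries, 2.43, 2.31 and 4.88 CPM in the Tc0 libraries with CoA, and 1.48, 2.56 and 7.02 CPM in the Tc0 libraries, with mouse 728 highest in every group and no call.

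The promoters of some of these genes carry the letters that MiT/TFE factors recognise. In RefSeq windows of 250 bases before to 50 after the annotated start (GRCm38.p6), found for 30 of the 37 genes, the E-box CACGTG was searched on both strands. So was the longer TCACGTGA, the core of the CLEAR element, which contains CACGTG. The genes Atg12, Atg16l1, Becn1, Ctsb, Map1lc3a, Pik3c3 and Rb1cc1 are named only. CACGTG was found for 8 of the 30 genes (26.7%), against 8.09% of all 27025 genes with a window, namely Atg14, Atg3, Atg5, Atg7, Ctsd, Ctsl, Lamp1 and Mcoln1. In the 4 lists of other pathway genes read below, it was found for 18.2% of other autophagy genes and 25% of other lysosomal proteins with a window. For vacuolar ATPase and nutrient-sensing genes the shares were 33.3% and 20%. The windows follow RefSeq starts, and those of Atg14, Atg7 and Ctsl lie wholly inside the gene as Ensembl places it. For Atg7 the window is chr6:114670846-114671145, in a gene that runs from 114643097 to 114860614. TCACGTGA was found for 3 of the 30 genes (10%, against 1.12%), namely Atg3, Ctsd and Mcoln1. In the other lists, in the same order, its shares were 9.09%, 5.56%, 25% and 0%. The core of the antioxidant response element, TGACNNNGC, was found for 5 of the 30 genes (16.7%, against 14%). Among the 9 genes with a window that were called lower with CoA, CACGTG was found for 1, Atg14 (11.1%, against 8.09%). Shown are the 120 bases before the start of the 3 genes with TCACGTGA and of Lamp1, the gene with the most E-boxes (4), read 5′ to 3′ along the gene's strand with the E-boxes in capitals.
Atg3, chr16:45158709-45158828, plus strand: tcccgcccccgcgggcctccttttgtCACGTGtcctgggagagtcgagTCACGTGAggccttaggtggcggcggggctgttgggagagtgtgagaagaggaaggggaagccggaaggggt
Ctsd, chr7:142387828-142387947, minus strand: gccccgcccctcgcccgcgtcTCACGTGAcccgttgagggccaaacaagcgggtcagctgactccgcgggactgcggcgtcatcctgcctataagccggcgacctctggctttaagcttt
Lamp1, chr8:13159041-13159160, plus strand: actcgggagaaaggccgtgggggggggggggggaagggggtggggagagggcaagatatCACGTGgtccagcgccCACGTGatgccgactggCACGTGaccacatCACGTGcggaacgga
Mcoln1, chr8:3500399-3500518, plus strand: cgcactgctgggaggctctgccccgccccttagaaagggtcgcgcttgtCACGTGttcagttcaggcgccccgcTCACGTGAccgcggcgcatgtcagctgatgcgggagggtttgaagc
The genes that hold TCACGTGA had different values. In Tc22 against Tc0 with CoA, Ctsd was called higher, Atg3 was called lower and Mcoln1 was not called. A match to these letters does not show that a factor binds there.

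Among the lysosomal proteases and membrane proteins, Ctsl (ENSMUSG00000021477, chromosome 13, 64359337 to 64370890, minus strand), the gene of the cysteine protease cathepsin L, was the 1 gene of the 37 called higher with CoA than in Tc0. It had 10.1, 10.8 and 11.9 CPM in the Tc22 libraries of mice 715, 725 and 728, 17.1, 15.7 and 16.96 CPM in the Tc0 libraries with CoA, and 12.2, 11.5 and 10.02 CPM in the Tc0 libraries. The 3 libraries with CoA lay above all 6 others, among which Tc22 and Tc0 overlapped. Ctsl was 1.48-fold higher with CoA than in Tc0 (log2 fold change 0.56, SE 0.15, adjusted p = 0.0214), a call lost without Tc0+CoA 725 or 728 or Tc0 725 (adjusted p between 0.0666 and 0.104). In Tc22 it was lower than in Tc0 with CoA (log2 fold change -0.60, SE 0.15, adjusted p = 0.0123), a call lost without Tc22 715 or 725 or Tc0+CoA 728 (adjusted p between 0.0655 and 0.0832). Ctsd encodes the aspartic protease cathepsin D and had 176, 184 and 216 CPM in the Tc22 libraries, 129.8, 117 and 176 CPM in the Tc0 libraries with CoA, and 118, 139 and 215 CPM in the Tc0 libraries. Mouse 728 was the highest in every group. The highest library with CoA lay just below the lowest of Tc22, and the Tc0 range overlapped both. Ctsd was higher in Tc22 than in Tc0 with CoA (log2 fold change 0.47, SE 0.13, adjusted p = 0.0192), a call lost without Tc22 715 or 725 or Tc0+CoA 725 or 728 (adjusted p between 0.0843 and 0.114), and without the mouse block (0.214). It was not called in Tc22 against Tc0 (log2 fold change 0.32, SE 0.13, adjusted p = 0.187), except without Tc0 728 (adjusted p = 0.0384).

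Lamp1, an abundant protein of the lysosomal membrane, averaged 127 ± 9.94 CPM in Tc22, 141 ± 8.78 CPM in Tc0 with CoA and 120.4 ± 4.37 CPM in Tc0 libraries (each a mean ± SD of 3 libraries). All libraries with CoA lay above all Tc0 libraries, but Lamp1 was not called (log2 fold change 0.23, SE 0.09, adjusted p = 0.0893). Lamp2, its partner in that membrane and a receptor of chaperone-mediated autophagy, averaged 90.3 ± 6.69 CPM in Tc22, 90.6 ± 6.29 CPM in Tc0 with CoA and 106 ± 25.5 CPM in Tc0 libraries. It was not called, except in Tc22 against Tc0 without Tc0 728 (adjusted p = 0.0267), where it was lower. Mcoln1, the lysosomal calcium channel TRPML1, had a log2 fold change of 0.0029 in Tc22 against Tc0, with SE 0.15, and of -0.024 with CoA against Tc0. Its level was 10.4 ± 1.27 CPM in Tc22, 10.2 ± 0.835 CPM in Tc0 with CoA and 10.4 ± 1.08 CPM in Tc0 libraries. Ctsb, the cysteine protease cathepsin B, averaged 136 ± 12.9 CPM in Tc22, 124 ± 13.3 CPM in Tc0 with CoA and 130.3 ± 16.5 CPM in Tc0 libraries and was not called. It overlaps Fdft1 on the opposite strand, a gene with 42327 counts against 34084 for Ctsb, so reads may be shared. Macrophages and other myeloid cells are rich in lysosomes. The 10 markers fixed for macrophages and monocytes, 6 of which passed the filter and 0 of which were at 0, summed to 7.31 to 8.95 CPM in Tc22, 5.69 to 16.3 CPM in Tc0 with CoA and 5.13 to 8.40 CPM in Tc0 libraries. These ranges overlapped, while those of dendritic cell and granulocyte markers, given above, lay higher with CoA than in Tc0. The part of all 3 in the differences of lysosomal genes was not tested.

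The same comparisons were read for 4 lists of other genes of the pathway. The first held 39 other autophagy genes, of which 38 were tested. With CoA against Tc0, 10 were called lower (26.3%, against a background of 12%) and 2 higher (5.26%, against 12.5%), and the median log2 fold change was -0.022. Bnip3 and Bnip3l, receptors on the outer membrane of mitochondria, were among those that fell. Bnip3 had 390.5, 577 and 559 CPM in the Tc22 libraries of mice 715, 725 and 728, 191, 124 and 256 CPM in the Tc0 libraries with CoA, and 304, 596 and 443 CPM in the Tc0 libraries. The libraries with CoA lay below all others, although levels within each group spread over a wide range. Bnip3 was lower with CoA (log2 fold change -1.21, SE 0.26, adjusted p = 0.0108), as was Bnip3l, at 117 ± 28.7 CPM with CoA against 286 ± 95.2 CPM in Tc0 (log2 fold change -1.24, SE 0.21, adjusted p = 0.00514). Both calls held under each of the 16 alternatives run. Wdr45, a gene of the WIPI family, was lower too (log2 fold change -1.05, SE 0.20, adjusted p = 0.00773), a call lost without the mouse block (0.0943). Tecpr1, which takes part in the joining of autophagosomes and lysosomes, was also lower (log2 fold change -0.90, SE 0.19, adjusted p = 0.011), a call lost without Tc0+CoA 725 or 728 (adjusted p between 0.0545 and 0.0645), and without the mouse block (0.116). The count of 10 was 3 without Tc0+CoA 725 or 728 and 4 without Tc0 725 or without the mouse block (3.17% to 4.31% of all genes). The count of 2 higher was 0 without each of those 3 libraries (4.13% to 5.13% of all genes) and 4 without Tc0 728 (13.4%). It was 1 without any 1 of the libraries of mouse 715 (10.4% to 14.9%).

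Tc22 cells against Tc0 cells with CoA had 8 of these 38 genes called higher (21.1%, against a background of 16%) and 2 lower (5.26%, against 16%), with a median of 0.13. The 4 with the smallest p were Bnip3l (log2 fold change 1.53, SE 0.21, adjusted p = 0.0013), Wdr45 (log2 fold change 1.45, SE 0.20, adjusted p = 0.00129), Atg16l2 (log2 fold change 1.01, SE 0.15, adjusted p = 0.00163) and Tecpr1 (log2 fold change 1.21, SE 0.19, adjusted p = 0.00225). Atg16l2, a relative of Atg16l1, had 34.5, 39.2 and 44.6 CPM in the Tc22 libraries of mice 715, 725 and 728, 20.1, 14.8 and 24.8 CPM in the Tc0 libraries with CoA, and 24.4, 26.2 and 39.1 CPM in the Tc0 libraries. The Tecpr1 call was lost without the mouse block (0.0542), and without Tc0 728 the count was 14 higher (18.7% of all genes). Without Tc22 725 or Tc0+CoA 725 or 728 it was 0 lower (6.61% to 7.51% of all genes). Without Tc22 715 it was 1 lower (10%) and without Tc0 728 it was 4 (19%). For Tc22 against Tc0 the count was 0 in either direction by edgeR, DESeq2 and limma-voom. The backgrounds were 2.48% higher and 1.21% lower by edgeR, 4.13% and 2.21% by DESeq2, and 2.42% and 1.19% by limma-voom. By edgeR 6 genes had an unadjusted p under 0.05 (21.2% of all genes tested had). The smallest adjusted p there was 0.153, for Atg16l2. Without Tc0 728 the count was 6 higher and 2 lower (9.91% and 7.1% of all genes).

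Other lysosomal proteins formed the second list, with 44 of 45 tested. With CoA against Tc0, 5 were called higher (11.4%, against a background of 12.5%) and 9 lower (20.5%, against 12%), and hydrolases stood on both sides. Arsb, which removes sulfate groups from glycosaminoglycans, had 7.89, 12.4 and 12.8 CPM in the Tc22 libraries of mice 715, 725 and 728, 3.302, 4.12 and 5.73 CPM in the Tc0 libraries with CoA, and 7.995, 17.6 and 18.3 CPM in the Tc0 libraries. All 3 libraries with CoA were the lowest of the 9, and Arsb was lower with CoA (log2 fold change -1.69, SE 0.18, adjusted p = 0.000982). Ctsz, the gene of cathepsin Z, had 49.97, 44.8 and 45.5 CPM in the Tc22 libraries, 88.9, 100.3 and 98.1 CPM in the Tc0 libraries with CoA, and 47.3, 29.8 and 48.3 CPM in the Tc0 libraries. Each library with CoA was far above every other, and Ctsz was 2.32-fold higher with CoA than in Tc0 (log2 fold change 1.22, SE 0.16, adjusted p = 0.00218). Lgmn, the protease legumain, was higher with CoA at a low level, 4.27 ± 0.417 CPM with CoA against 1.41 ± 0.614 CPM in Tc0 libraries (log2 fold change 1.65, SE 0.28, adjusted p = 0.00467). The calls of Arsb, Ctsz and Lgmn held under each of the 16 alternatives run. The counts were 2 higher and 2 lower without Tc0+CoA 725 or Tc0 725, and 3 higher and 2 lower without Tc0+CoA 728. In these fits 4.13% to 5.13% of all genes were called higher and 3.17% to 4.22% lower. Sums of macrophage and monocyte markers overlapped between the groups, with the highest in a library with CoA. Sums of dendritic cell markers and of granulocyte and mast cell markers lay wholly above Tc0 in the libraries with CoA. Their part in these results was not tested.

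Between Tc22 and Tc0 with CoA, 17 of the 44 lysosomal genes were called higher (38.6%, against a background of 16%) and 8 lower (18.2%, against 16%). They included Arsb (log2 fold change 1.33, SE 0.18, adjusted p = 0.0012), Smpd1, the acid sphingomyelinase (log2 fold change 1.50, SE 0.23, adjusted p = 0.00207), and Ctsf, the gene of cathepsin F (log2 fold change 2.15, SE 0.38, adjusted p = 0.00318), all higher in Tc22, and Ctsz, lower in Tc22 (log2 fold change -1.04, SE 0.16, adjusted p = 0.00174). Ctsf was also the only gene of the list called in Tc22 against Tc0 (log2 fold change 1.88, SE 0.35, adjusted p = 0.0192), with 0.612, 1.01 and 1.76 CPM in the Tc22 libraries of mice 715, 725 and 728, 0.228, 0.181 and 0.311 CPM in the Tc0 libraries with CoA, and 0.126, 0.326 and 0.468 CPM in the Tc0 libraries. It stood highest in the Tc22 libraries and rests on few counts. Its call against Tc0 was lost without any 1 of the Tc22 libraries or Tc0 715 or 725 (adjusted p between 0.0616 and 0.0972), and without the mouse block (0.198). Without Tc0 728 the count in Tc22 against Tc0 was 5 higher and 2 lower (9.91% and 7.1% of all genes). Against Tc0 with CoA the count of 17 was 8 without Tc22 725 or Tc0+CoA 725 (7.32% and 7.85%), and 10 without Tc0+CoA 728 (8.03%). The count of 8 lower was 3 without Tc22 725 or Tc0+CoA 725 (6.61% and 7.51%). It was 4 without Tc22 715 or Tc0+CoA 728 (10% and 7.45%), and 5 without Tc22 728 (11.8%).

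The vacuolar ATPase, the proton pump that acidifies lysosomes, had genes called higher with CoA. In cells with CoA against Tc0, 4 of its 17 genes were called higher (23.5%, against a background of 12.5%) and 0 lower (background 12%), with a median log2 fold change of 0.20, and 7 had an unadjusted p under 0.05 (38.1% of all genes tested had). DESeq2 and limma-voom also called 4 higher and 0 lower (of all genes, 13% and 11.6% by DESeq2, 12.5% and 12.3% by limma-voom). Atp6v1a, the catalytic subunit, had 210.4, 189.97 and 175 CPM in the Tc22 libraries of mice 715, 725 and 728, 324, 343 and 296 CPM in the Tc0 libraries with CoA, and 252, 204 and 171 CPM in the Tc0 libraries. The 3 libraries with CoA were above all others, and Atp6v1a was 1.55-fold higher with CoA than in Tc0 (log2 fold change 0.63, SE 0.11, adjusted p = 0.00551). Atp6v1e1 (log2 fold change 0.44, SE 0.11, adjusted p = 0.0181), Atp6v0c (log2 fold change 0.54, SE 0.15, adjusted p = 0.0301) and Atp6v0e (log2 fold change 0.35, SE 0.10, adjusted p = 0.0332) were higher as well. The call of Atp6v1a held under each of the 16 alternatives run. That of Atp6v1e1 was lost without Tc0+CoA 725 or 728 or Tc0 725 (adjusted p between 0.099 and 0.114), and in a fit of only the groups compared (0.0521). That of Atp6v0c was lost without Tc0+CoA 725 or 728 or Tc0 715 or 725 (adjusted p between 0.0775 and 0.173), and without the mouse block (0.233). That of Atp6v0e was lost without Tc22 715 or 725, Tc0+CoA 725 or 728 or Tc0 715 or 725 (adjusted p between 0.0613 and 0.186), without the mouse block (0.159), with no low-count filter (0.0861), and in a fit of only the groups compared (0.106). The count of 4 was 1 without Tc0+CoA 725 or 728 or Tc0 725 (4.13% to 5.13% of all genes). Without Tc0 728, 1 gene was called lower (11.9% of all genes).

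With Tc22 set against Tc0 with CoA, 5 of the 17 pump genes were called lower (29.4%, against a background of 16%) and 1 higher (5.88%, against 16%). The 4 with the smallest p were Atp6v1a (log2 fold change -0.75, SE 0.11, adjusted p = 0.00166), Atp6v1c1 (log2 fold change -0.45, SE 0.10, adjusted p = 0.00932), Atp6v1e1 (log2 fold change -0.43, SE 0.11, adjusted p = 0.0157) and Atp6v1h (log2 fold change -0.42, SE 0.11, adjusted p = 0.0185), all subunits of the cytosolic part of the pump. All but Atp6v1a were lost under some alternatives. Atp6v1c1 was lost without Tc22 715 or 725 or Tc0+CoA 728 (adjusted p between 0.0628 and 0.0668), and without the mouse block (0.0515). Atp6v1e1 was lost without Tc22 715 or 725 or Tc0+CoA 725 or 728 (adjusted p between 0.0735 and 0.0917). Atp6v1h was lost without Tc22 715 or 725 or Tc0+CoA 725 or 728 (adjusted p between 0.0632 and 0.129), and without the mouse block (0.0681). The count of 5 was 1 without Tc22 715 or 725 or Tc0+CoA 728 (6.61% to 10% of all genes), and 2 without Tc0+CoA 725 (7.51%). The 1 gene called higher was not called without Tc22 725 or 728 or Tc0+CoA 725 or 728 (7.32% to 13.9% of all genes were). In Tc22 against Tc0, 0 were called in either direction by edgeR, DESeq2 and limma-voom. The backgrounds were 2.48% higher and 1.21% lower by edgeR, 4.13% and 2.21% by DESeq2, and 2.42% and 1.19% by limma-voom. By edgeR 0 had an unadjusted p under 0.05 (21.2% of all genes tested), and 1 was called lower without Tc0 728 (7.1% of all genes).

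Of 37 genes of nutrient sensing upstream of autophagy, 2 were called higher (5.41%, against a background of 2.48%) and 0 lower (background 1.21%) in Tc22 against Tc0 by edgeR. DESeq2 (4.13% higher and 2.21% lower of all genes) and limma-voom (2.42% and 1.19%) gave the same counts. By edgeR, 10 of the 37 genes had an unadjusted p under 0.05, against 21.2% of all genes tested. Rragd, a Rag GTPase through which amino acids recruit mTORC1 to the lysosome, had 34.03, 28.6 and 29.4 CPM in the Tc22 libraries of mice 715, 725 and 728, 17.6, 11.7 and 15.1 CPM in the Tc0 libraries with CoA, and 19.1, 15.9 and 14.5 CPM in the Tc0 libraries. All Tc22 libraries lay above all others, and Rragd was 1.87-fold higher in Tc22 than in Tc0 (log2 fold change 0.90, SE 0.13, adjusted p = 0.00613) and 2.09-fold higher than in Tc0 with CoA (log2 fold change 1.06, SE 0.13, adjusted p = 0.000883). Its call against Tc0 was lost without Tc22 725 (adjusted p = 0.054), and without the mouse block (0.0757). Castor1, an arginine sensor of mTORC1, had 15.98, 12.1 and 16.3 CPM in the Tc22 libraries, 7.402, 3.98 and 10.4 CPM in the Tc0 libraries with CoA, and 6.11, 4.48 and 10.5 CPM in the Tc0 libraries. It was higher in Tc22 than in Tc0 (log2 fold change 1.15, SE 0.20, adjusted p = 0.0137), a call lost without Tc22 715 or 725 or Tc0 715 or 725 (adjusted p between 0.073 and 0.0851), and without the mouse block (0.377). Against Tc0 with CoA Castor1 was higher as well (log2 fold change 1.12, SE 0.20, adjusted p = 0.00359), a call lost without the mouse block (0.0987). Without Tc0 728 the count was 8 higher and 1 lower (9.91% and 7.1% of all genes). Without Tc22 725 it was 0 higher (0.944%), and without Tc22 715 or Tc0 715 or 725 it was 1 higher (0.932% to 1.13%).

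With CoA against Tc0, 4 of the 37 nutrient-sensing genes were called lower (10.8%, against a background of 12%) and 2 higher (5.41%, against 12.5%). Sesn1, a stress-induced inhibitor of mTORC1, had 36.6, 41.1 and 39.5 CPM in the Tc22 libraries of mice 715, 725 and 728, 33.9, 24.5 and 31.5 CPM in the Tc0 libraries with CoA, and 46.1, 58.1 and 51.6 CPM in the Tc0 libraries, lowest in the 3 libraries with CoA, and was lower with CoA than in Tc0 (log2 fold change -0.79, SE 0.15, adjusted p = 0.00716). Its relative Sesn3 was lower (log2 fold change -0.86, SE 0.19, adjusted p = 0.0115), a call lost without Tc0+CoA 728 or Tc0 725 (adjusted p between 0.057 and 0.062). Slc38a9, an arginine transporter of the lysosomal membrane, was lower (log2 fold change -0.56, SE 0.15, adjusted p = 0.0238), a call lost without Tc0+CoA 725 or 728 or Tc0 725 (adjusted p between 0.105 and 0.144), and without the mouse block (0.0693). Prkab2, a regulatory subunit of the energy sensor AMPK, was lower (log2 fold change -0.78, SE 0.21, adjusted p = 0.0243), a call lost without Tc0+CoA 725 or 728 or Tc0 725 or 728 (adjusted p between 0.0575 and 0.136). The count of 4 was 2 without Tc0+CoA 725 (3.59% of all genes) and 1 without Tc0+CoA 728 or Tc0 725 (4.22% and 3.17%). Without each of these 3 libraries the count of genes called higher was 0 (4.13% to 5.13%), and without Tc0 728 it was 6 (13.4%). For Tc22 against Tc0 with CoA, 6 were called higher (16.2%, against a background of 16%) and 4 lower (10.8%, against 16%). Among them were Sesn3, higher (log2 fold change 0.94, SE 0.19, adjusted p = 0.00537), and Lamtor3, a subunit of the scaffold that holds mTORC1 at the lysosome, lower (log2 fold change -0.57, SE 0.11, adjusted p = 0.0053). The Lamtor3 call was lost without Tc0+CoA 728 (adjusted p = 0.0513). The count of 6 was 3 without Tc22 715 or 725 (10.5% and 7.32% of all genes). The count of 4 lower was 0 without Tc0+CoA 728 (7.45%) and 2 without Tc22 715 (10%). It was 1 without Tc0+CoA 725 or Tc22 725 or 728 (6.61% to 11.8%).

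**Figure D3:**
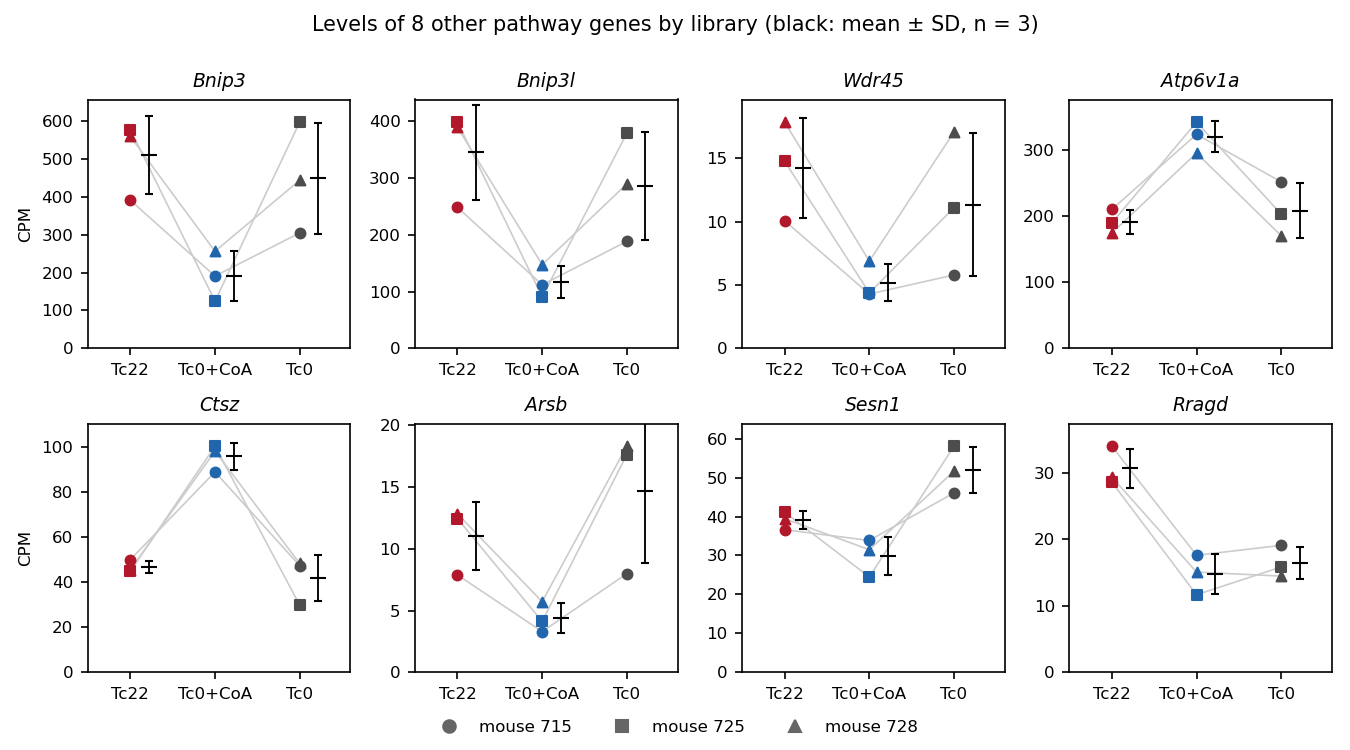
Levels in CPM of 8 other genes of the pathway in each library of the Tc22, Tc0 with CoA and Tc0 groups, with grey lines joining the libraries of 1 mouse and black marks for mean ± SD (n = 3). Bnip3, Bnip3l and Arsb are lowest and Atp6v1a and Ctsz highest in all 3 libraries with CoA, and Rragd is highest in all 3 Tc22 libraries.

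Across the lists, the share of genes called lower with CoA against Tc0 was 29.7% of the 37 autophagy and lysosome genes, 26.3% of the other autophagy genes, 20.5% of the other lysosomal proteins, 10.8% of the nutrient-sensing genes and 0% of the vacuolar ATPase genes, against 12% of all genes tested. The share called higher was 2.7%, 5.26%, 11.4%, 5.41% and 23.5% in the same order, against 12.5%. Between Tc22 and Tc0 with CoA the shares called higher were 40.5%, 21.1%, 38.6%, 16.2% and 5.88%, against 16%, and the shares called lower were 5.41%, 5.26%, 18.2%, 10.8% and 29.4%, against 16%. For Tc22 set against Tc0 the shares called higher were 5.41%, 0%, 2.27%, 5.41% and 0%, against 2.48%, and those called lower were 0% for every list, against 1.21%. No test of the difference between lists was run.

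**Figure D4:**
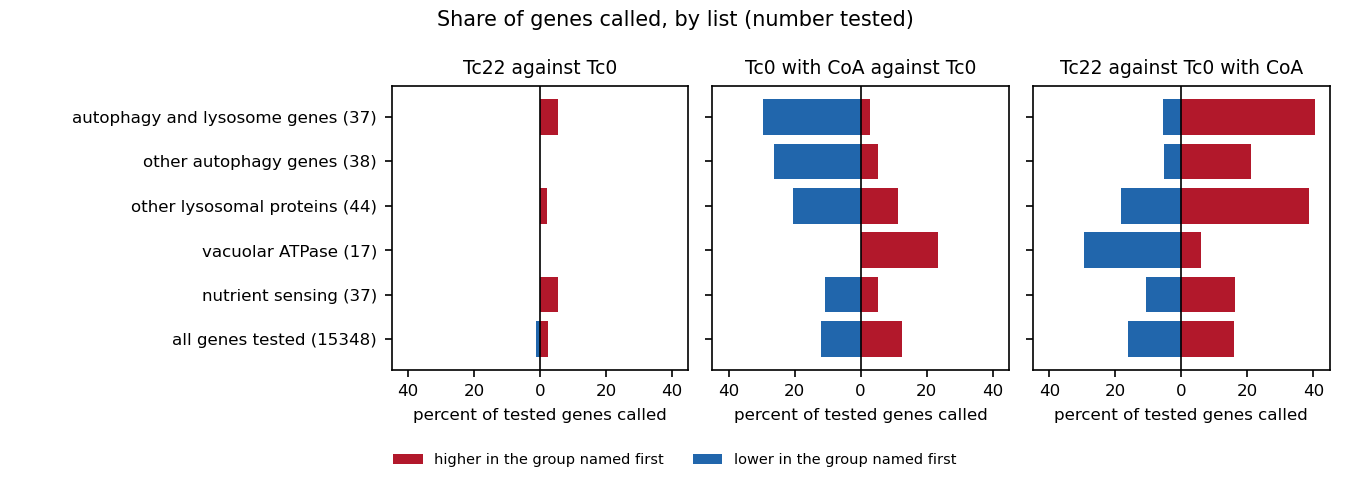
Bars give the percent of tested genes called higher (right of 0) and lower (left of 0) in the group named first, for the 37 autophagy and lysosome genes, 4 lists of other pathway genes and all 15348 genes tested. In the middle panel the longest bars left of 0 are those of the 37 genes (29.7%) and the other autophagy genes (26.3%), and the longest right of 0 is that of the vacuolar ATPase (23.5%).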

How the data were processed

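Total RNA of the 9 libraries had been depleted of ribosomal RNA and sequenced as paired ends, per the labels' protocols. The authors deposited whole-number counts per gene. RSEM 1.3.0, STAR 2.5.2 and the build GRCm38 are listed, without their roles, in the submitters' processing notes. RSEM estimates need not be whole, so the counts may have been rounded. The strand setting is not given in the sources used here, so genes that overlap on opposite strands may share reads. Identifiers without a symbol held 0.0226% of the counts and were tested under their identifier.

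Genes passing edgeR's filterByExpr (15348) were scaled with TMM factors and tested with edgeR's quasi-likelihood test (R 4.3.3, edgeR 4.0.16). Group and mouse were the terms of the model, with all 9 libraries in 1 fit and 4 residual degrees of freedom. The fit was tested on simulated data. The labels give the mouse number of every library. Deviations from the group means correlated at 0.0699 to 0.617 over the 9 pairs of libraries of 1 mouse, and at -0.527 to 0.228 over the 18 pairs of different mice and groups. Within a group the deviations of a gene sum to 0. Positive correlations within a mouse therefore force negative ones between mice, and the ranges are not independent. The SE of a log2 fold change is its size divided by the square root of F. CPM uses TMM-scaled library sizes. Alternatives were DESeq2 1.42.0, limma-voom (limma 3.58.1), other scalings, no filter, no block, only the groups compared, and leaving out each library, applied after the data were seen to the other pathway lists too.

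Autophagy and lysosome genes called in any comparison are named with their CPM in every library and the log2 fold change, SE and adjusted p of each call. Their values in comparisons without a call are given only for some. Of the others, at least the 2 with the smallest p in each role group are given with values. Of each list of other pathway genes, the 4 called genes with the smallest p are named, or 1 where none was called. A gene that this rule names is not reported here. The genes and lists were chosen with earlier results of these data known. Within-mouse log2 ratios add 0.5 CPM to each level.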

Additional observations from a re-analysis of the deposited data

How the results depend on the processing

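Of 31 called results for single autophagy and lysosome genes, 9 passed the threshold under all 16 alternatives and 0 changed direction. Over 70 results for these genes and 1120 recomputed values, 1000 stayed on the same side of the threshold in the same direction, 95 fell below it, 16 passed it and 9 changed sign. The sign changes were of uncalled results when 1 library was left out. In Tc22 against Tc0 the log2 fold change then ranged over -0.12 to 0.017 for Nbr1, -0.015 to 0.30 for Map1lc3b, -0.12 to 0.083 for Ulk2, -0.017 to 0.22 for Atg12 and -0.16 to 0.055 for Ctsl, and in Tc22 against Tc0 with CoA over -0.21 to 0.39 for Tfeb. For 37 named results of other pathway genes, 531 of 592 values stayed and 61 fell below the threshold.

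DESeq2 and limma-voom gave the same counts of the 37 genes as edgeR, namely 2 higher and 0 lower in Tc22 against Tc0, 1 and 11 with CoA against Tc0, and 15 and 2 in Tc22 against Tc0 with CoA. Of all genes, DESeq2 called 4.13% and 2.21%, 13% and 11.6%, and 15.2% and 15.4% in that order. The shares by limma-voom were 2.42% and 1.19%, 12.5% and 12.3%, and 15.9% and 16.1%. In fits of only the groups compared, 1 of the 37 genes was called higher in Tc22 against Tc0 (2.62% of all genes). With CoA against Tc0, such a fit called higher 0 other autophagy genes and 2 of the vacuolar ATPase (10.4%). With no low-count filter, Tc22 against Tc0 had 1 other autophagy gene and 3 lysosomal genes called higher (3.08% of all genes). DESeq2 called 2 lysosomal genes higher there (4.13%). Leaving out single libraries gave 0 to 5 higher and 0 to 3 lower in Tc22 against Tc0, 0 to 1 higher and 3 to 11 lower with CoA against Tc0, and 8 to 18 higher and 0 to 3 lower in Tc22 against Tc0 with CoA, where the median log2 fold change ran over 0.29 to 0.40. The shares of all genes moved too. They ran over 0.932% to 9.91% higher and 0.338% to 7.1% lower in Tc22 against Tc0. With CoA against Tc0 they ran over 4.13% to 14.9% and 3.17% to 12.6%. In Tc22 against Tc0 with CoA they ran over 7.32% to 18.7% and 6.61% to 19%. Under TMM, DESeq2 size factors and library size alone, the median log2 fold change of all genes lay between -0.0091 and 0.011 over the comparisons.

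Without the mouse block, which sets aside the pairing of libraries by animal, 1 gene was called higher in Tc22 against Tc0, 4 lower with CoA against Tc0, and 7 higher and 1 lower in Tc22 against Tc0 with CoA. Calls over all genes fell too, to 0.567% higher, 4.31% lower, and 6.63% higher and 7.04% lower in the same order. With CoA against Tc0, 5.21% of all genes were called higher. In that fit the CoA comparison called 0 higher and 4 lower of the other autophagy genes, 3 and 4 of the lysosomal proteins, 2 and 0 of the vacuolar ATPase and 0 and 3 of nutrient sensing. Tc22 against Tc0 with CoA gave 7 and 2, 8 and 4, 0 and 2, and 2 and 1 for those lists in that order, and Tc22 against Tc0 gave 0 for all.

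With 3 animals a group and 4 residual degrees of freedom, a missed threshold does not show equal levels. The part of the spread of the Tc0 group in the number of calls was not tested. In Tc22 against Tc0, 1555 genes were called higher and 1114 lower without the Tc0 library of mouse 728, against 380 and 185 with it. For CoA against Tc0 the counts were 2110 and 1872 without it, against 1915 and 1848. Genes averaging under 2 CPM, such as Mitf and Map1lc3a, rest on few reads.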
